A study of Mus musculus with 10 samples.

Results

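Adamts1 and Adamts5, 2 neighbouring protease genes on mouse chromosome 16 (Mmu16), were examined together with Adamts4, the lecticans Bcan, Ncan, Acan and Vcan, the link proteins Hapln1 and Hapln4, and tenascin-R (Tnr). These 10 genes were chosen by name. Each had 1 probe set on the array, so 10 of the 19938 genes measured are described. Adamts1 and Adamts5 lie in the interval that Dp1Yey mice carry in 3 copies, from Lipi to Zbtb21, and the other 8 genes lie outside it in 2 copies. RNA came from the hippocampus of 16-week-old males, from 5 Dp1Yey mice, which model Down syndrome through a duplication of that Mmu16 segment, and 5 control littermates without it. The labels give the background as C57BL/6N and the study's methods as C57BL/6J, and which is right could not be settled. All 10 mice were otherwise untreated as far as the labels say. The tissue was whole hippocampus, so fewer cells of a type and less RNA per cell cannot be told apart in any value below.

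The perineuronal matrix is built on hyaluronan. The lecticans, a family of chondroitin sulphate proteoglycans, bind hyaluronan at one end, and the link proteins hold them there. Tenascin-R joins lecticans to each other at the opposite end. Around parvalbumin interneurons and CA2 pyramidal cells of the hippocampus this matrix condenses into perineuronal nets, which are known for limiting synaptic plasticity. Adamts1, Adamts4 and Adamts5 encode secreted metalloproteases that cut lectican core proteins. What the array measured was transcript level, and neither protease activity nor the matrix itself was measured.

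No gene of the 10 passed the limma test at a Benjamini-Hochberg adjusted p under 0.05 over all genes, against 0.797% of the 19938 genes (0.687% higher and 0.11% lower) and 0.5% of the genes outside the interval. At an unadjusted p under 0.05 there was 1, Adamts1, against 19.5% of all genes. A rank statistic rewritten from the study's method, which averages each gene's rank by fold over all pairs of a Dp1Yey and a control array, called 1, again Adamts1 and higher. It called 3.46% of all genes, and 46.9% of the interval genes as higher. For no gene of the 10 did the 2 groups fail to overlap, against 4.86% of all genes. Of the 10 genes, 7 were on average higher in Dp1Yey mice and 3 lower. After median centring of the arrays, on their median over all 35556 probe sets, the split was 9 higher and 1 lower.

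The arrays themselves differed slightly by genotype. The median log2 signal over all 35556 probe sets was 6.31 to 6.37 on the Dp1Yey arrays and 6.35 to 6.44 on the control arrays (exact permutation p = 0.0397, two-sided). Olfactory receptor genes, used here as a measure of background, averaged 4.77 to 4.79 and 4.80 to 4.86 respectively (exact permutation p = 0.00794, the smallest that 5 against 5 allows). The background floor, the level below which 90% of these olfactory receptor genes fell, was 5.45, and 9 of the 10 genes lay above it. Adamts5 did not.

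Adamts1 encodes a secreted protease with thrombospondin repeats that cuts aggrecan, versican and brevican. The gene (probe set 10440522, Entrez 11504) lies on the minus strand at chr16:85793827-85803113 of GRCm38.p6. Its promoter, from 250 bases before to 50 after the start, is shown because Adamts1 is the member that moved most between the groups. It covers chr16:85803064-85803363 in RefSeq's GRCm38.p6 table and is written from 5′ to 3′ on the gene's strand, with capitals marking TATAAA and GGGCGG, the letters of a TATA box and of a GC box.
Adamts1 promoter: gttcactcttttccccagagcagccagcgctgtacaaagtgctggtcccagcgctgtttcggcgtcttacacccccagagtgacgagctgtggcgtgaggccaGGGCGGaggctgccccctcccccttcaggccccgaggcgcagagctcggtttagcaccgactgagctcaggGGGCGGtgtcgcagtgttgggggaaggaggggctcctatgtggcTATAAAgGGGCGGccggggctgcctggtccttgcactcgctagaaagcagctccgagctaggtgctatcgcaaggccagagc

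TATAAA began 32 bases before the start and GGGCGG began 147, 76 and 25 bases before it. Both strands were searched and overlapping matches counted. TATAAA was present in 13.6% and GGGCGG in 35.7% of 32851 promoters of this length. The Adamts1 promoter held 18 CpG, where the median promoter held 7, and its GC content was 64.7%. Of the 10 genes, 7 were matched in the promoter table. Ncan was the only other of these 7 with TATAAA, and it held 1 GGGCGG as well. GGGCGG was found 3 times for Acan, 2 times for Vcan and 1 time for Bcan, and neither set of letters was found for Tnr or Hapln1. Adamts4, Adamts5 and Hapln4 were not matched. A match describes the letters in the window and is not evidence that a factor binds there.

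The log2 signals of Adamts1 were 8.48, 8.81, 8.70, 8.75 and 8.54 on Dp1Yey arrays 1 to 5 and 8.54, 7.83, 7.84, 8.40 and 8.41 on control arrays 1 to 5. Each of the 5 Dp1Yey arrays exceeded the control mean, while control array 1 reached into the Dp1Yey range and controls 2 and 3 stood well below all others. The means were 8.66 ± 0.14 (SD, n = 5) in Dp1Yey mice and 8.20 ± 0.34 (SD, n = 5) in control littermates. That is 1.37-fold (95% interval 1.12 to 1.68), with an adjusted p of 0.124 in limma. An increase of 1.5-fold lay inside this interval, and the test against 1.5-fold gave an adjusted p of 0.413 over the interval genes.

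**Figure D1:**
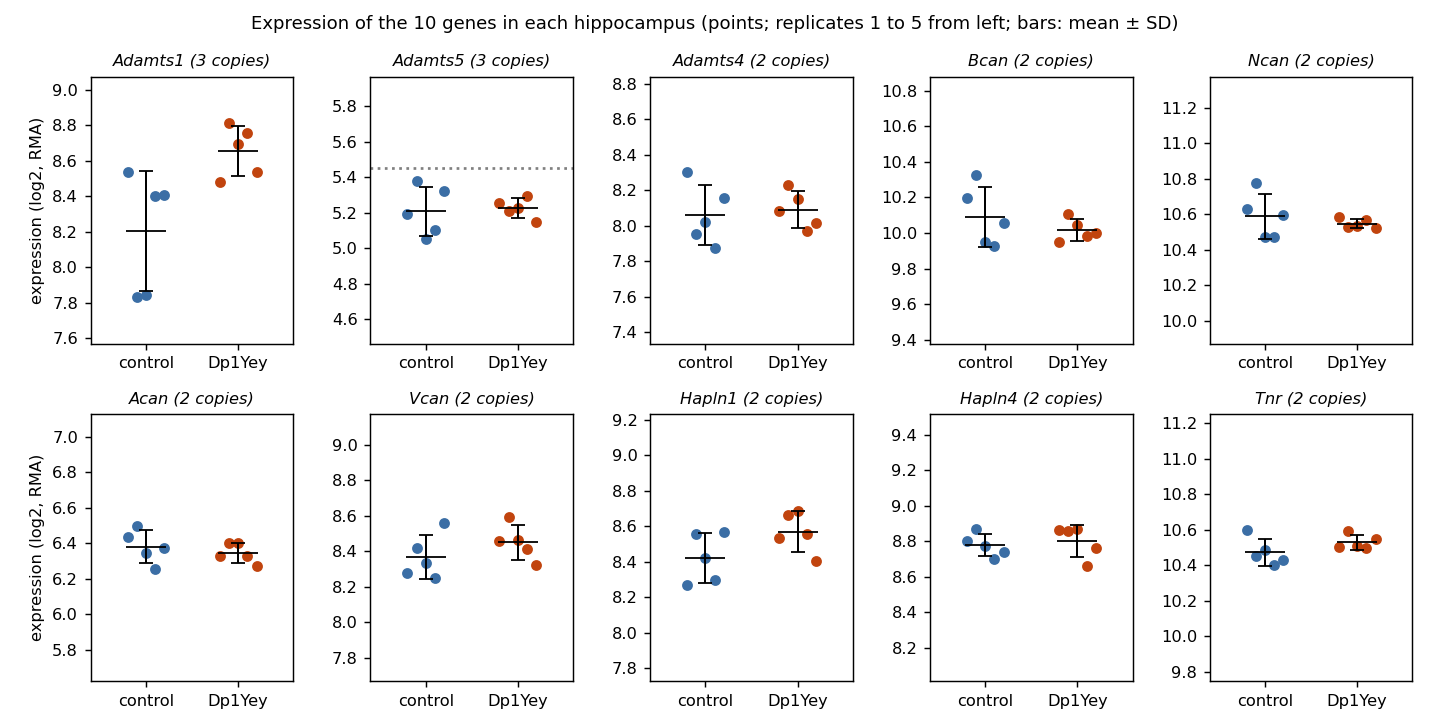
Log2 RMA signal of each of the 10 genes on every array, Dp1Yey and control littermates side by side, with each group's mean and SD drawn beside the points and the background floor dotted where it falls within the panel. Adamts1 shows control arrays 2 and 3 at 7.83 and 7.84, below all other arrays, and Adamts5 sits at or below the floor of 5.45 on every array.

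Compared with the other genes in 3 copies, Adamts1 was moderately raised and unusually variable. Of the 143 interval genes measured, 41.3% were called higher, and of the 96 above the background floor 61.5% were called higher, which is 59 genes. The median fold of the 96 was 1.25, and 33 of them had a higher fold than Adamts1. Yet 27 of the 59 called genes had a lower fold than the 1.37-fold of Adamts1, which was not called. Its pooled SD was 0.26 on the log2 scale, where the median of the 96 was 0.085. Clic6, Gm10785 and Slc5a3 were the 3 with a larger SD. Clic6, a chloride channel protein abundant in choroid plexus, had the largest at 0.64 and was at 0.725-fold (adjusted p = 0.434 in limma).

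Choroid plexus transcripts moved with the arrays. This epithelium makes cerebrospinal fluid and lies against the hippocampus in the ventricle. How much of it each dissected sample held was not measured, and the cause of the differences below was not tested. Of 7 listed markers, 6 were measured, all 6 above the floor and all 6 lower on average in Dp1Yey mice, 5 of them at an unadjusted p under 0.05, against 10.8% of all genes, and 0 called by limma, against 0.11% called lower. The rank statistic called 4 of them lower, namely Ttr, Folr1, Kl and Aqp1, against 0.993% of all genes. Without control array 3, limma called Aqp1, a water channel (adjusted p = 0.0064), and Folr1, a folate receptor (adjusted p = 0.0483). Without other single arrays the limma adjusted p reached 0.169 for Aqp1 and 0.268 for Folr1. The median log2 difference of the 6 was -0.60, against -0.015 over all genes. Ttr, the thyroid hormone carrier transthyretin and the defining marker, read 10.46, 9.37, 9.20, 11.95 and 11.32 in Dp1Yey mice and 13.16, 10.50, 10.26, 13.09 and 13.11 in control littermates.

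The mean log2 signal of the 6 markers was 9.06, 8.67 and 8.72 on control arrays 1, 4 and 5, the controls on which Adamts1 read 8.40 to 8.54. It was 7.65 and 7.48 on control arrays 2 and 3, on which Adamts1 read 7.83 and 7.84. Among the controls, high Adamts1 and high choroid plexus signal were therefore on the same arrays. On the Dp1Yey arrays the markers averaged 7.26 to 7.96, and Adamts1 read 8.48 to 8.81. Thus the Dp1Yey arrays combined high Adamts1 with low choroid plexus signal. The part of choroid plexus in the Adamts1 result was not tested.

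**Figure D2:**
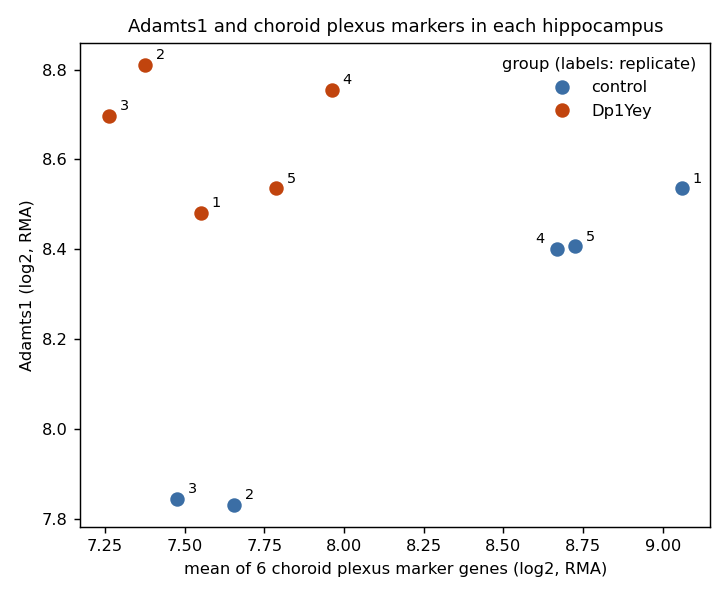
Log2 signal of Adamts1 on each array against the mean log2 signal of 6 choroid plexus markers on the same array, points numbered by replicate and coloured by group. Control arrays 2 and 3 lie at low values of both, controls 1, 4 and 5 at high values of both, and the 5 Dp1Yey arrays at high Adamts1 with marker means of 7.26 to 7.96.

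Adamts1 is also made by vascular cells. Of 8 endothelial markers 7 were on average higher in Dp1Yey mice, 2 at an unadjusted p under 0.05, against 8.75% of all genes, and 0 called, against 0.687% called higher, with a median log2 difference of 0.070. Slco1a4, a transporter of brain capillaries, was at 1.26-fold (limma adjusted p = 0.059) and Tek, the angiopoietin receptor, at 1.21-fold (limma adjusted p = 0.114). The rank statistic called both higher, 2 of the 8 markers, against 2.46% of all genes. After median centring limma called 1 endothelial marker higher. Over the settings other than single arrays left out, the limma adjusted p of Slco1a4 was 0.019 to 0.15. Both genes passed in limma without control array 1, at adjusted p of 0.0436 for Slco1a4 and 0.0421 for Tek. Without other single arrays the limma adjusted p reached 0.142 for Slco1a4 and 0.232 for Tek. The mean endothelial signal overlapped between the groups, with array means of 8.55 to 8.73 in Dp1Yey mice and 8.43 to 8.73 in controls. Of 8 markers of mural cells, the pericytes and smooth muscle of vessels, 5 were higher and 3 lower, with a median of 0.031. Among the mural markers the rank statistic called 1 higher, Vtn (1.21-fold, limma adjusted p = 0.100). The part of these cells in the Adamts1 result was not tested.

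Adamts5 encodes the protease best known as an aggrecanase of cartilage. It lies next to Adamts1, with 55.0 kb and no measured gene between them, at chr16:85858157-85901125 (probe set 10440534, Entrez 23794). Its log2 signals were 5.26, 5.21, 5.23, 5.29 and 5.15 in Dp1Yey mice and 5.19, 5.38, 5.05, 5.10 and 5.32 in control littermates. All 10 values were below the floor of 5.45, and the groups overlapped. The means were 5.23 ± 0.054 and 5.21 ± 0.14 (SD, n = 5 each), a fold of 1.01 (0.926 to 1.11) with a limma adjusted p of 0.879. At this signal the probe set could not be told from background, so the fold says little about a gene in 3 copies. The sign of its difference turned when control array 3 (-0.020) or control array 4 (-0.0077) was left out.

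Set against the mean of the other interval genes above the floor on the same array, Adamts1 differed between the groups by 0.17 on the log2 scale (exact permutation p = 0.341, two-sided). Control arrays 2 and 3 gave the lowest of the 10 values. The like contrasts with Adamts5, of Adamts1 minus Adamts5 and of Adamts5 minus the other interval genes, take their value from a probe set at background, so no difference between the neighbours is read from them.

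The nearest genes in 3 copies gave a clearer change. Atp5j, which encodes a coupling factor of the mitochondrial ATP synthase, was 1.26-fold higher (1.2 to 1.34, limma adjusted p = 0.000689). Gabpa, an ETS-family transcription factor, was 1.48-fold higher (1.33 to 1.64, limma adjusted p = 0.00151), and App, the amyloid precursor, was 1.18-fold higher (1.13 to 1.24, limma adjusted p = 0.00261). For these 3 the Dp1Yey and control arrays did not overlap. Cyyr1, the closest of them to Adamts1, was 1.30-fold higher (1.16 to 1.46, limma adjusted p = 0.0475), also without overlap, but leaving out any array other than control 5 raised its limma adjusted p to 0.053 or above. Gm10791, a predicted gene in the same stretch, was at 0.998-fold (0.940 to 1.06, limma adjusted p = 0.981). Its sign turned under several settings.

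**Figure D3:**
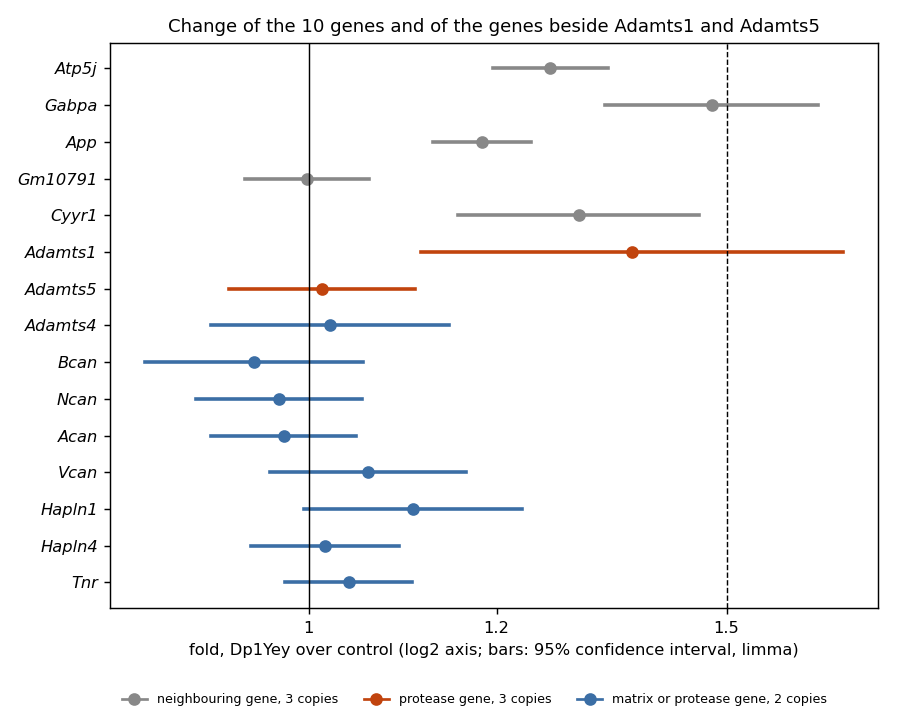
Fold of Dp1Yey over control littermates on a log axis with the 95% interval from limma, for the 10 genes and for the measured neighbours of Adamts1 and Adamts5. The interval of Adamts1 runs from 1.12 to 1.68, and those of the neighbours Atp5j, Gabpa, App and Cyyr1 lie above 1.

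Adamts4, the remaining lectican-cleaving protease, lies on chromosome 1 (171250129 to 171262267) in 2 copies and is known in brain from oligodendrocytes. It read 8.08, 8.23, 8.15, 7.97 and 8.02 in Dp1Yey mice and 8.30, 7.95, 8.02, 7.87 and 8.16 in control littermates. The control arrays spanned the whole Dp1Yey range. The fold was 1.02 (0.910 to 1.15, limma adjusted p = 0.846), and the sign of the difference turned under several settings. Oligodendrocyte markers, 6 of 7 measured, had a median log2 difference of 0.091 with 0 called in limma. The rank statistic called 1 of the 6 higher, Opalin, against 2.46% of all genes.

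Over the 8 genes in 2 copies the median log2 difference was 0.027, against -0.015 over all genes. Their limma adjusted p ranged from 0.274 to 0.846. For 7 of the 8 the 95% interval lay within a change of 1.2-fold in either direction. Hapln1 was the exception.

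Among the lecticans, Bcan and Ncan are the abundant forms of adult brain, Acan is the one that marks perineuronal nets, and Vcan is the large form also made by glial precursors. Bcan (chromosome 3, 87987531 to 88002175) read 9.95, 10.10, 10.05, 9.98 and 9.9997 in Dp1Yey mice and 10.20, 10.33, 9.95, 9.93 and 10.05 in control littermates. Ncan (chromosome 8, 70093085 to 70120863) read 10.59, 10.53, 10.54, 10.57 and 10.52 in Dp1Yey mice and 10.63, 10.77, 10.47, 10.47 and 10.60 in control littermates. In both, control arrays 1 and 2 were the highest of all and the Dp1Yey arrays lay inside the control range. The folds were 0.949 (0.854 to 1.05, limma adjusted p = 0.548) for Bcan and 0.972 (0.896 to 1.05, limma adjusted p = 0.677) for Ncan. With control arrays 1 and 2 left out the differences turned to 0.038 for Bcan and 0.034 for Ncan on the log2 scale.

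Acan (chromosome 7, 79053226 to 79115099) read 6.33, 6.4, 6.4, 6.33 and 6.27 in Dp1Yey mice and 6.44, 6.50, 6.34, 6.26 and 6.37 in control littermates. The Dp1Yey values all lay inside the control range. The fold was 0.976 (0.910 to 1.05, limma adjusted p = 0.684), with the sign turning to 0.012 after median centring. Vcan (chromosome 13, 89655309 to 89743027) read 8.45, 8.59, 8.46, 8.41 and 8.32 in Dp1Yey mice and 8.28, 8.42, 8.33, 8.25 and 8.56 in control littermates. Control array 5 was near the top of the Dp1Yey range and controls 1 and 4 were the lowest of all arrays. Its fold was 1.06 (0.963 to 1.17, limma adjusted p = 0.463).

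Hapln1, the cartilage link protein, also found in perineuronal nets (chromosome 13, 89540529 to 89611832), read 8.53, 8.66, 8.69, 8.56 and 8.40 in Dp1Yey mice. In control littermates it read 8.27, 8.56, 8.42, 8.30 and 8.57. Controls 1 and 4 were again the lowest, and controls 2, 3 and 5 lay among the Dp1Yey arrays. The fold was 1.11 (0.995 to 1.23), the largest of the 8 genes in 2 copies, with an unadjusted p of 0.0591 and an adjusted p of 0.274 in limma. Hapln4, a link protein of brain known as a partner of Bcan (chromosome 8, 70083529 to 70090862), read 8.86, 8.86, 8.87, 8.66 and 8.76 in Dp1Yey mice. In control littermates it read 8.80, 8.87, 8.78, 8.70 and 8.74, so the ranges of the groups nearly coincided. Its fold was 1.02 (0.946 to 1.09, limma adjusted p = 0.807).

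Tnr (chromosome 1, 159523729 to 159931729), the glycoprotein that joins lecticans, read 10.51, 10.59, 10.51, 10.50 and 10.55 in Dp1Yey mice. It read 10.60, 10.45, 10.49, 10.40 and 10.43 in control littermates, with control array 1 above every Dp1Yey array and the other 4 controls below every one. The fold was 1.04 (0.978 to 1.11, limma adjusted p = 0.445).

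Lecticans and link proteins lie beside each other in the mouse genome, and each pair had no measured gene between its members. Vcan and Hapln1 are 43.5 kb apart, and controls 1 and 4 were the lowest of the 10 arrays for both. Ncan and Hapln4 are 2.22 kb apart. Bcan lies 18.4 kb from Hapln2, the link protein of myelinated axons, which differed by -0.15 on the log2 scale (limma adjusted p = 0.216). Acan lies 1.93 kb from Hapln3, which differed by -0.064 (limma adjusted p = 0.441). No pair held a gene that passed the test.

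Single arrays accounted for much of the spread. Control array 2 was the highest of all arrays for 5 of the 10 genes, namely Adamts5, Bcan, Ncan, Acan and Hapln4, and the lowest for Adamts1. Control array 4 was the lowest for 6 genes, namely Adamts4, Bcan, Ncan, Acan, Vcan and Tnr. In 8 of the 9 genes above the floor the SD between controls was larger than that between Dp1Yey mice, the exception being Hapln4. This difference in spread was not tested.

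The wider matrix was described with 6 lists of 89 genes, of which 84 were measured and 77 were above the floor. None was called, against 0.797% of all genes. At an unadjusted p under 0.05, 9 were higher and 15 lower, against 8.75% and 10.8% of all genes, and the rank statistic called 3 higher and 0 lower, against 2.46% of all genes called higher. In all, 26 were on average higher and 58 lower, and their median log2 difference was -0.044. Over all genes 8393 were higher and 11545 lower. After median centring the matrix genes split into 43 higher and 41 lower, with a median of 0.0026. Over all genes that centring gave 13247 higher and 6691 lower, with a median of 0.032. It left 3 matrix genes called higher, namely Adamts3, Reck and Timp3, against 294 of all genes. After quantile normalisation the matrix split was 27 higher and 57 lower, with a median of -0.040 against -0.0054 over all genes. The matrix median thus lay below that of all genes under each scaling, while the counts by sign moved. This gap was not tested.

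**Figure D4:**
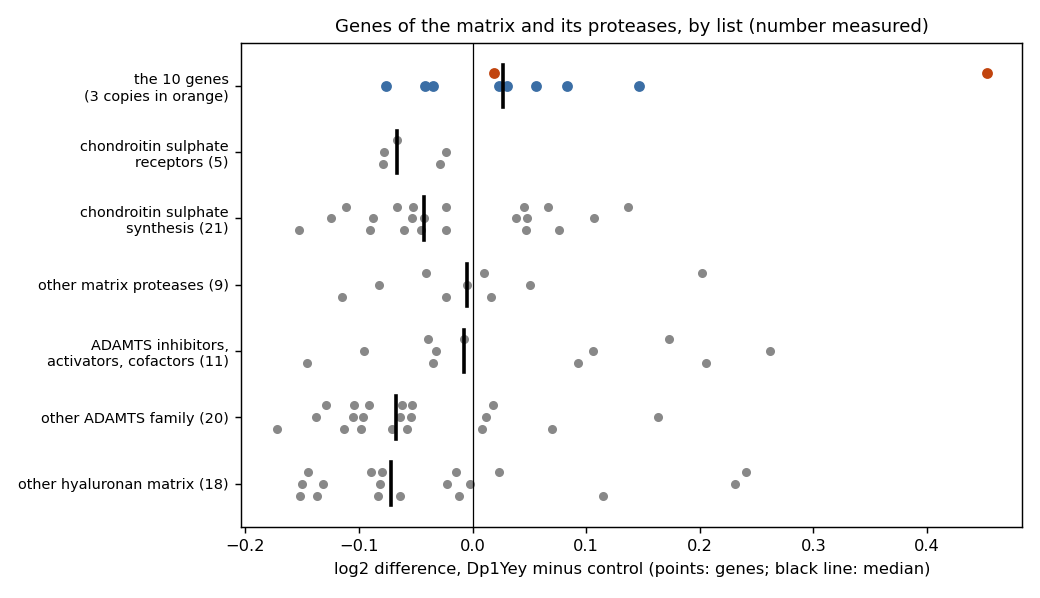
Log2 difference, Dp1Yey minus control littermates, of each measured gene in 6 lists of matrix genes. A short bar marks the median of each list, and the long line marks no difference. The median of all genes is not drawn. The individually described protease and matrix genes form a further row, with Adamts1 and Adamts5, the genes in 3 copies, in orange. Most points lie within a narrow band around the line of no difference, and no gene passed the test.

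Among 18 other genes of the hyaluronan matrix 4 were higher and 14 lower, with a median of -0.072, and after median centring 8 were higher and 10 lower, with a median of -0.025. Ptprz1, the receptor phosphatase whose secreted form is the proteoglycan phosphacan, read 10.56, 10.43, 10.55, 10.59 and 10.45 in Dp1Yey mice and 10.69, 10.67, 10.66, 10.63 and 10.65 in control littermates. Every Dp1Yey array was below every control array, at 0.904-fold (0.854 to 0.957, limma adjusted p = 0.094). Over all genes 4.86% had groups without overlap, and such genes were not counted over the matrix lists. Genes named from these lists were those of smallest p, so a lack of overlap among them is not a separate result. Some unnamed genes of the lists lacked overlap too. Nptx2, a secreted pentraxin of excitatory synapses on parvalbumin cells, was at 1.17-fold (1.05 to 1.32, limma adjusted p = 0.151). Tnfaip6, which binds hyaluronan, was at 1.18-fold (1.03 to 1.35, limma adjusted p = 0.185).

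Of the 20 other ADAMTS proteases and ADAMTS-like proteins measured, 5 were higher and 15 lower, with a median of -0.068, and the split was the same after median centring. Adamts3, which cuts reelin and procollagen, read 8.97, 8.85, 8.87, 9.01 and 9.02 in Dp1Yey mice and 8.80, 8.81, 8.83, 8.76 and 8.72 in control littermates. Its groups did not overlap, at 1.12-fold (1.05 to 1.19, limma adjusted p = 0.094), and after median centring its limma adjusted p was 0.032. Under the other settings that p reached 0.301. Adamts14, another procollagen protease, was at 0.887-fold (limma adjusted p = 0.144), also without overlap of the groups. Adamts20, which cuts versican, was at 0.925-fold (limma adjusted p = 0.167).

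Regulators of ADAMTS proteases numbered 11, with 5 higher, 6 lower and a median of -0.0072. After median centring 9 were higher and 2 lower, with a median of 0.039 and 2 called higher, namely Reck and Timp3. Reck, a membrane-anchored inhibitor of metalloproteases, read 7.84, 7.91, 8.10, 7.99 and 8.05 in Dp1Yey mice and 7.92, 7.65, 7.71, 7.64 and 7.67 in control littermates. Control array 1 lay within the Dp1Yey range and the other 4 controls below it. The fold was 1.2 (1.09 to 1.32, limma adjusted p = 0.075), and the limma adjusted p fell to 0.022 without control array 1. Without other single arrays it reached 0.165. Timp3, the inhibitor bound to matrix that blocks Adamts4 and Adamts5, read 10.15, 10.17, 10.34, 10.26 and 10.21 in Dp1Yey mice. It read 10.14, 10.05, 9.94, 10.06 and 10.08 in control littermates, so its groups did not overlap, at 1.13-fold (1.05 to 1.21, limma adjusted p = 0.094).

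Of 9 other matrix proteases 4 were higher and 5 lower, with a median of -0.0046 that became 0.042 after median centring. Ctss, a cathepsin of microglia, was at 1.15-fold (limma adjusted p = 0.134). Enzymes of chondroitin sulphate synthesis numbered 21, with 8 higher, 13 lower and a median of -0.043, or 0.0036 after median centring. Ust, a sulphotransferase acting on uronic acid, was at 1.1-fold (1.04 to 1.16, limma adjusted p = 0.085). Chst13 was at 0.900-fold (limma adjusted p = 0.133). For Ust and Chst13 the groups did not overlap. Chst3, another sulphotransferase of these chains, was at 0.926-fold (limma adjusted p = 0.194). All 5 receptors of chondroitin sulphate were lower on average, with a median of -0.067, and after median centring 2 were higher and 3 lower. Ptprf and Ptprs, phosphatase receptors of the LAR family, were at 0.947-fold (limma adjusted p = 0.309) and 0.955-fold (limma adjusted p = 0.371).

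Markers of the cells that make or carry the nets gave 0 calls in limma, apart from 1 of hippocampal neurons called higher after median centring and 1 of astrocytes called lower after quantile normalisation. Several of the splits below changed with the scaling. Over all genes median centring turned the balance to 13247 higher and 6691 lower. The 10 markers of parvalbumin interneurons had a median log2 difference of 0.0040, with 6 higher and 4 lower. They were 4 higher and 6 lower after quantile normalisation, and 9 higher and 1 lower after median centring, with a median of 0.051. The 6 markers of CA2 pyramidal cells had a median of -0.0061, with 3 higher and 3 lower, or 5 higher and 1 lower after median centring. The 10 astrocyte markers had a median of -0.020, with 5 higher and 5 lower, or 7 higher and 3 lower after median centring. Fgfr3, a growth factor receptor among them, was called lower by the rank statistic (0.832-fold, limma adjusted p = 0.0601). The 6 markers of oligodendrocyte precursors had a median of -0.047, with 1 higher and 5 lower, or 3 higher and 3 lower after median centring. All 7 markers of hippocampal excitatory neurons were above the floor. So were all measured markers of the other cell types listed, and 15162 of the 19938 genes. Lying above the floor therefore cannot tell which tissue was sampled. The 7 markers of hippocampal excitatory neurons had a median of -0.052. The rank statistic called 1 of these higher, Wfs1, a marker of CA1 pyramidal cells (1.34-fold, limma adjusted p = 0.0533). For 6 microglial markers the median was 0.074, with 5 higher and 1 lower, or 6 higher and 0 lower after median centring. For 8 fibroblast markers the median was 0.049, with 4 higher and 4 lower, or 5 higher and 3 lower after median centring. The rank statistic called 2 of the fibroblast markers higher, against 2.46% of all genes. The only measured marker of blood, Alas2, differed by 0.56 (limma adjusted p = 0.165) and was called higher by the rank statistic.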

How the data were processed

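Hippocampal RNA of 10 male mice, 5 Dp1Yey and 5 control littermates, was hybridised to Affymetrix Mouse Gene 1.0 ST arrays, 1 array per mouse. The authors background-corrected, quantile-normalised and summarised the probes by RMA and deposited log2 values, which were used as given. The table held 35556 probe sets, of which 21789 had 1 gene symbol in the platform annotation, 1621 several and 12146 were not listed. The brightest probe set stood for a gene, which left 19938 genes. Copy number was assigned from RefSeq positions in GRCm38.p6 (chr16:75540514-97962627).

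Groups were compared with limma 3.58.1 in R 4.3.3, with genotype as the only term and Benjamini-Hochberg adjustment over all genes. The study's rank method, FCROS, was rewritten as an alternative over 25 array pairs, trimmed by 0.25, with tails of 0.025 and 0.975. The difference between Adamts1, Adamts5 and other interval genes was tested by exact permutation over 252 assignments. The floor was the 90th percentile of 1015 olfactory receptor genes. Alternatives were quantile normalisation, median centring, a filter at the floor, the mean of a gene's probe sets, an intensity trend, array weights, a replicate block, the interquartile range as a term, and leaving out arrays. Scripts were tested on simulated data. The number of arrays limits the precision, and the p-values set differences between the groups against the spread between these mice.

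The 10 genes and all gene lists were chosen with earlier results of these data known. The 10 genes were named individually, with the interval genes starting within 1 Mb of Adamts1 or Adamts5 and up to 3 genes of smallest p in each list. Ttr, Clic6, Gm10785, Slc5a3, Hapln2 and Hapln3 were named outside this rule after their values were seen. Some genes of the lists were not analysed here.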

Additional observations from a re-analysis of the deposited data

Results flagged for a closer look

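Reck, the membrane-anchored metalloprotease inhibitor, read 7.92 on control array 1, far from the other 4 controls at 7.64 to 7.71. The gap was 0.747 of the group's range. This was 1 of 78 gene and group combinations checked over 39 genes, where chance alone gives such a sample in about 1 of 20.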

How the results depend on the processing

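No gene of the 10 was called by limma under any setting tried, and 1 was called by the rank statistic. Over all genes 159 were called in limma. The count was 308 after median centring, 94 with the replicate number as a block, 46 with each array's interquartile range as a term and 689 by the rank statistic, and 70 to 232 with each array left out in turn. The causes were not tested. The labels do not say whether replicate numbers pair the arrays. Deviations of same-numbered arrays correlated between -0.33 and 0.22 over 15162 genes, which cannot decide it. The replicate block raised the limma adjusted p of Adamts1 to 0.203 and that of Cyyr1 to 0.0887. At a floor set at the 75th percentile of the olfactory receptor genes, all 10 genes lay above it.

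The log2 difference of Adamts1 was 0.35 to 0.50 over the other settings (limma adjusted p = 0.091 to 0.73). The highest of these limma adjusted p came with the interquartile range as a term. Without single arrays the difference was 0.36 to 0.54 (limma adjusted p = 0.086 to 0.25). The 2 contrasts that use Adamts5 take their values from a probe set below the floor on all 10 arrays, so neither they nor their p-values show a difference between the genes. Adamts1 minus Adamts5 differed between the groups by 0.43 (exact permutation adjusted p = 0.0476). It differed by 0.37 after quantile normalisation (exact permutation adjusted p = 0.0833) and by 0.37 without controls 1 and 2 (exact permutation adjusted p = 0.0536). Without single arrays it differed by 0.30 to 0.52 (exact permutation adjusted p = 0.024 to 0.131). Adamts5 minus other interval genes was -0.27 (exact permutation adjusted p = 0.0238). It was -0.22 without controls 1 and 2 (exact permutation adjusted p = 0.0536). Without single arrays it was -0.31 to -0.22 (exact permutation adjusted p = 0.024 to 0.048).

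Differences near 0 changed sign, none of them called. After quantile normalisation the log2 difference was -0.00034 for Adamts4, 0.010 for Acan, -0.00037 for Hapln4 and 0.052 for Gm10791. After median centring it was 0.0052 for Ncan, 0.012 for Acan and 0.044 for Gm10791. With array weights it was 0.0015 for Ncan, 0.00039 for Acan and 0.0024 for Gm10791. With the interquartile range as a term it was -0.019 for Adamts4, 0.034 for Bcan, 0.021 for Ncan and 0.0090 for Flt1, an endothelial receptor. Without controls 1 and 2 it was 0.038 for Bcan, 0.034 for Ncan, 0.022 for Acan and 0.014 for Gm10791. Without single arrays it ranged from -0.020 to 0.061 for Adamts5, from -0.017 to 0.090 for Adamts4, from -0.071 to 0.0050 for Ncan and from -0.025 to 0.021 for Gm10791.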
